A study of Mus musculus with 6 samples.

Results

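Slc19a2, Ak1, Ddit4l, Polk, Dcxr and Cpt1c are 6 genes of small-molecule metabolism, growth control and DNA damage tolerance that were higher in mutant presomitic mesoderm together with targets of p53. They were chosen because their signal was higher in mutant than in control pools, so the differences between genotypes are given below as a description and carry no test. All probe sets annotated to exactly 1 of these symbols were taken, low signals included, which gave 8 of the 19551 probe sets of the table that are not array controls, and 6 of 10290 genes.

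The presomitic mesoderm (PSM) is the tissue from which somites form. Its anterior part was dissected from mouse embryos of strain background C57BL6/6J at embryonic day 8.75, and each array held RNA of 1 pool of 3 PSMs. There were 3 mutant pools, R26R AC/AC;T-Cre, and 3 control pools, R26R AC/AC, so the controls carry the same AC allele on both chromosomes and lack the Cre. T-Cre is a Cre recombinase under the promoter of T (Brachyury), active in the primitive streak and the mesoderm derived from it, and AC stands, as far as the study is known, for A-CREB, a protein that blocks CREB family transcription factors. The labels do not spell it out. No pool had T-Cre without the AC allele, so an effect of Cre and an effect of AC cannot be told apart. Pools hold several embryos, so the spread between single embryos was not measured. The p-values weigh a difference against the spread between pools.

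As background, p53 is a transcription factor that accumulates after DNA damage and other stress and switches on genes that stop the cell cycle, tune metabolism or start cell death. Slc19a2 encodes a high-affinity carrier that brings thiamine, vitamin B1, into the cell, and Ak1 a cytosolic adenylate kinase that exchanges phosphate between adenine nucleotides. Ddit4l, also called REDD2, encodes an inhibitor of the growth-promoting kinase complex mTORC1. Polk encodes DNA polymerase kappa, which copies past damaged bases. Dcxr encodes dicarbonyl and L-xylulose reductase, an enzyme that reduces sugars and reactive dicarbonyls with NADPH. Cpt1c encodes the brain-enriched form of carnitine palmitoyltransferase, which lies in the endoplasmic reticulum and has little of the activity of its mitochondrial relatives. Polk and Cpt1c have been described as p53-responsive in mouse cells, and SLC19A2 in human cells.

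The promoter windows of the 6 genes were read from RefSeq (GRCm38.p6) to show what sequence lies at their starts. Each window runs from 250 bases before to 50 bases after an annotated start, and the 6 genes have 10 windows, because Ak1 has 4 and Polk has 2. A p53 element was searched as 2 copies of the consensus p53 half-site, 10 bases each, up to 3 bases apart, with at most 3 mismatches over both copies and the central C and G of each copy kept. The half-site consensus reads the same on both strands. Such an element was found in 2 of the 10 windows, those of Ddit4l and Dcxr, and in 5.76% of 32851 windows of all genes. The elements are shown beside those that the same search found at Cdkn1a and Ccng1, which encode a cyclin-dependent kinase inhibitor and cyclin G1 and are textbook p53 targets, with capitals for the bases that match the consensus and lower case for mismatches and spacer bases.
Ddit4l (chr3:137623582-137623603, plus strand, 3 mismatches): GGGCTTGCCTggGccCcTGCCT
Dcxr (chr11:120727386-120727406, minus strand, 3 mismatches): AGcCTTGCCTcGGtCAcGCCC
Cdkn1a (chr17:29090928-29090947, plus strand, 1 mismatch): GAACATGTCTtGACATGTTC
Ccng1 (chr11:40755462-40755481, minus strand, 1 mismatch): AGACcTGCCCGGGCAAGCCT
The element of Ddit4l ended 68 bases and that of Dcxr 101 bases before the annotated start. A single half-site with no mismatch was present in 2 of the 10 windows, within the Ddit4l element and in the first Polk window, and in 8.36% of all windows. The Polk windows are numbered by chromosome position. Polk lies on the minus strand, so its first window is the downstream one and its second the upstream one. The palindromic site of CREB, TGACGTCA, was in 0 of the 10 windows and in 1.79% of all. The shorter form TGACG, on either strand, was in 1 window, the second one of Polk, and in 20.8% of all. These are matches of letters in short windows, and the sites that proteins occupy were not measured.

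The windows of the gene with the largest difference (Ddit4l), of the gene with the steadiest one (Slc19a2), of Dcxr and of the second, upstream start of Polk are printed in full, 5′ to 3′ on the strand of the gene. Capitals mark the p53 element and the letters TATAAA in Ddit4l, the p53 element in Dcxr and TGACG in Polk. In Slc19a2, which had no match to the p53 or CREB motifs, they mark CCAAT and GGGCGG on either strand. The TATAAA of Ddit4l lies within the 50 bases after the annotated start. TATAAA was present in 13.6%, CCAAT in 37.4% and GGGCGG in 35.7% of all windows.
Ddit4l (chr3:137623422-137623721, plus strand): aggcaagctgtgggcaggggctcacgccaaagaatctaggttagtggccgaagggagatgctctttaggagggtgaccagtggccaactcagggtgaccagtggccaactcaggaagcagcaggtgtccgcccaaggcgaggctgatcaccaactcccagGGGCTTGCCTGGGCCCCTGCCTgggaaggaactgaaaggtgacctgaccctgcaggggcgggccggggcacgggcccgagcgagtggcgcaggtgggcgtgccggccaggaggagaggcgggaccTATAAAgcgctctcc
Slc19a2 (chr1:164248796-164249095, plus strand): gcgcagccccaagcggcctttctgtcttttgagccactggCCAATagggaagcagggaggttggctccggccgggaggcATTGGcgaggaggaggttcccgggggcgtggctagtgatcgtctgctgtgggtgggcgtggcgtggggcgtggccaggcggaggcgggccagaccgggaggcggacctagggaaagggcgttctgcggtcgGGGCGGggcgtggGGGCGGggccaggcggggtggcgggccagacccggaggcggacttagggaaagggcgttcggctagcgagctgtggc
Dcxr (chr11:120727235-120727534, minus strand): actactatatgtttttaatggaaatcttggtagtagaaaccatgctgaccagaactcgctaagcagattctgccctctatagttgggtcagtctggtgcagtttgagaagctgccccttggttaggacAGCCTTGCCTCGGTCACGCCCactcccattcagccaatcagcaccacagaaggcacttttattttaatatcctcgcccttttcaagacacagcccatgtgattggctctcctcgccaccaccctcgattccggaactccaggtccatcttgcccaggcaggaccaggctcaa
Polk (chr13:96542530-96542829, minus strand): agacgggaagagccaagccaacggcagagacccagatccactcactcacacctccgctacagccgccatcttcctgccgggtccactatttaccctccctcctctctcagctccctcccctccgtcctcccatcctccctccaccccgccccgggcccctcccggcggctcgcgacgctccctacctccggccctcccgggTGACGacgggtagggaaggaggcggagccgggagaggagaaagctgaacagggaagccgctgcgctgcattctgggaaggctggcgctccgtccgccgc

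Signals are MAS5 values on a linear scale, in arbitrary units, with 1 value per probe set and array. Differences are mutant minus control means of log2 of the signal plus 1, and folds are taken on that scale. Median signal per array lay between 491 and 535. The arrays fall into 3 with a dap spike-in ratio (3′ over 5′ probe set of a control transcript added before labelling) above 15, which are mutant 1, mutant 2 and control 1 with 19.6 to 23.8, and 3 below it, with 10.2 to 12.2. Differences within each of these sets are given for the 6 genes, although 1 of the genotypes then has only 1 pool. In all 8 probe sets the 3 mutant values lay above the 3 control values, as the choice of the genes fixes. Over all probe sets 10.9% had mutant above control with no overlap.

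**Figure D1:**
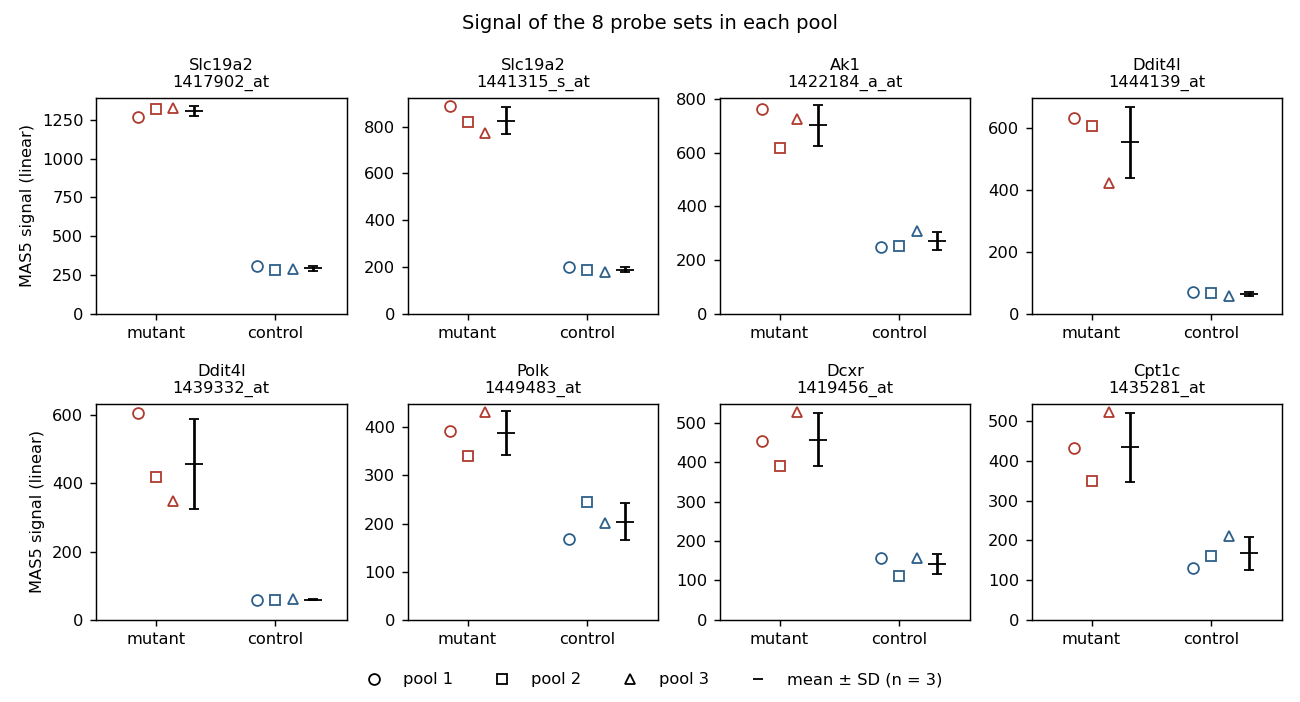
MAS5 signal (linear, from 0) of the 8 probe sets in the 3 mutant pools (left, red) and 3 control pools (right, blue), with mean ± SD in black. Every mutant value lies above every control value, with the narrowest gap for Polk, whose lowest mutant pool reads 340 and highest control pool 245.

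Ddit4l had the largest difference of the 6 genes. Its probe set 1444139_at read 632, 607 and 424 in mutant pools 1, 2 and 3, against 69.3, 66.8 and 57.7 in control pools 1, 2 and 3. The 3 mutant values were 6.12 times or more the highest control value, and mutant 3 was the lowest of them. The difference was 3.06 on the log2 scale, or 8.36-fold. The second probe set, 1439332_at, read 605, 418 and 349 in the mutant pools, against 59.1, 56.7 and 61.0 in the control pools, a difference of 2.90 on the log2 scale. Both probe sets order the mutant pools alike, with mutant 1 highest and mutant 3 lowest. The control signals of Ddit4l are low, so its fold depends on the offset added before taking logs. With 64 added to the signal in place of 1, the differences were 2.25 and 2.06.

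Slc19a2 had the most even values. Its brighter probe set, 1417902_at, read 1271, 1323 and 1328 in mutant pools, against 310, 283 and 285 in control pools. Mean signal was 1307 ± 31.5 in mutant and 293 ± 14.6 in control pools (SD, n = 3 each), a log2 difference of 2.16, or 4.46-fold. The dimmer one, 1441315_s_at, read 887, 817 and 772 in mutant pools, against 202, 185 and 179 in control pools. Its difference was 2.12, so the 2 probe sets of the thiamine carrier gave nearly the same fold, although the dimmer one is of a kind (_s_at) that can detect more than 1 transcript.

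Ak1 read 762, 618 and 728 in mutant pools, against 249, 253 and 309 in control pools (1422184_a_at). The difference was 1.37 on the log2 scale, or 2.59-fold, with the lowest mutant pool 2.00 times the highest control pool. Ak1 and both Slc19a2 probe sets were the 3 of the 8 whose mean log2 signal reached the 40th percentile of all probe sets, which corresponds to a signal of 349. They reached it through their mutant values, since their control means were 271 for Ak1 and 293 and 189 for Slc19a2. The control means of all 8 probe sets lay below 349, and detection calls were not used here.

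Polk, the translesion polymerase, had the smallest difference of the 6 genes. It read 392, 340 and 432 in mutant pools, against 168, 245 and 200 in control pools. The gap between genotypes was narrow, with mutant 2 at 1.39 times control 2. Mean log2 signal differed by 0.93, or 1.91-fold, at an SD of 0.18 in mutant and 0.27 in control pools.

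Dcxr read 454, 391 and 527 in mutant pools, against 157, 112 and 157 in control pools. All 3 mutant pools were at least 2.50 times the highest control pool. The log2 difference was 1.69, or 3.22-fold.

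Cpt1c read 431, 349 and 523 in mutant pools, against 130, 162 and 211 in control pools. Its difference was 1.38, or 2.60-fold, close to that of Ak1. The spread among pools was the widest of the 6 genes in control pools, with an SD of 0.35 on the log2 scale there and 0.29 in mutant pools.

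Among the mutant pools the 6 genes did not share 1 order. Mutant 2 was lowest for Ak1, Polk, Dcxr and Cpt1c, whereas mutant 3 was lowest for both Ddit4l probe sets and for 1441315_s_at of Slc19a2, and mutant 1 for 1417902_at. Mutant 3 was highest for 1417902_at, Polk, Dcxr and Cpt1c. Within the arrays of high and of low spike-in ratio, the differences were 2.06 and 2.22 for 1417902_at of Slc19a2, 1.46 and 1.38 for Ak1, and 1.12 and 0.96 for Polk. Ddit4l (1444139_at) had 3.14 at high and 2.75 at low ratio. Dcxr was the gene with the widest gap between the sets, with 1.42 and 1.98. Cpt1c had 1.57 and 1.50. Each difference was positive in both sets, which the lack of overlap between genotypes fixes in advance.

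**Figure D2:**
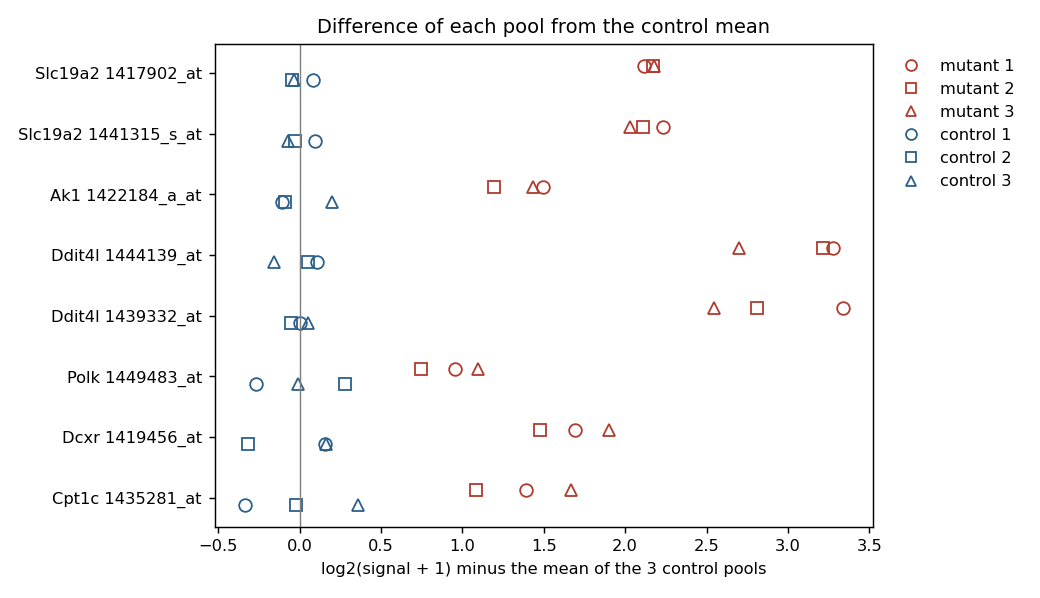
Log2(signal + 1) of each pool minus the mean of the 3 control pools (x axis), for the 8 probe sets (rows), with mutant pools in red and control pools in blue and 1 symbol per pool number. The mutant pools of Slc19a2 lie close together near 2.1, while those of Ddit4l spread from 2.55 to 3.34 over both probe sets.

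The genes with the most similar profile were taken by the root mean square difference between log2 profiles, each centred on its mean over the 6 arrays, among 9966 genes with 1 symbol. Nearest to Slc19a2 were Ccng1 (0.11 log2 units), Trp53inp1, a p53-induced nuclear protein (0.18), and Phlda3, which represses Akt signalling (0.21). Ddit4l was nearest to Eda2r, a receptor of the TNF receptor family (0.30), Egr1, an immediate early transcription factor (0.32), and Cdkn1a (0.32). Dcxr was nearest to Phlda3 (0.20), Ak1 (0.23) and Ptprv, a receptor phosphatase (0.25). Ak1 and Cpt1c were among each other's nearest genes, at 0.16. Ak1 also had Igdcc4 (0.16) and Tmem139 (0.22), and Cpt1c had Myl9, a myosin light chain (0.21), and Batf3 (0.21). Polk was nearest to Pou3f1 (0.13), Sphk2, a sphingosine kinase (0.13), and the neurotrophin gene Ntf5 (0.14). Their mean signals were low, with 89.2, 107 and 178 in mutant pools and 47.9, 64.7 and 96.6 in control pools. Among the nearest genes outside the 6, only Ccng1, Trp53inp1, Phlda3, Cdkn1a and Myl9 reached the 40th percentile of mean log2 signal. These distances are over 6 arrays of 2 genotypes, so genes with an equally large genotype difference come out as near.

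**Figure D3:**
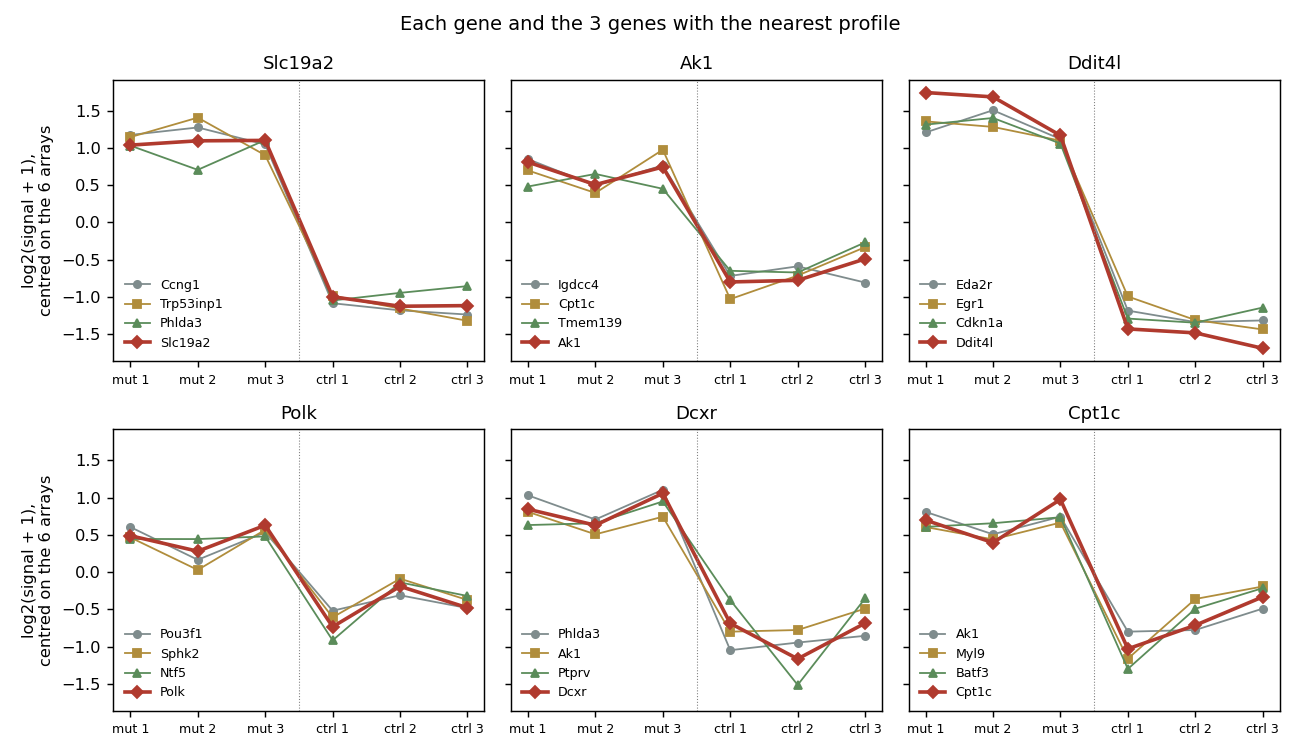
Log2(signal + 1) centred on the mean of the 6 arrays (y axis) in mutant pools (left of the dotted line) and control pools (right), for each of the 6 genes (red diamonds) and the 3 genes nearest to it, with lines that only join the points of a gene. Slc19a2 and Ccng1 differ by 0.11 log2 units on average, and the nearest genes of Ddit4l by 0.30 or more.

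The test of mutant against control pools was limma over all 19551 probe sets, with Benjamini-Hochberg adjusted p under 0.05 as the call, and it is reported here for genes that were not chosen on their difference. It called 47 probe sets higher and 62 lower, or 0.24% and 0.317%, and 0.558% in all. With each gene represented by its probe set of highest mean signal, 0.34% of 10290 genes were called higher and 0.466% lower.

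The closest family members of the 6 genes did not pass this test. Of 14 such genes 9 were measured, and 0 were called, while 3 had an unadjusted p under 0.05, all of them higher, against 7.84% of all genes. Ddit4, or REDD1, the paralogue of Ddit4l that also inhibits mTORC1, read 3035, 1886 and 2368 in mutant pools, against 1735, 1860 and 1203 in control pools (log2 difference 0.60, SE 0.20, adjusted p = 0.237 by limma). Ak3, a mitochondrial adenylate kinase, had 0.36 (SE 0.15, adjusted p = 0.338), and Ak4 −0.04 (adjusted p = 0.937). Rev1, a translesion polymerase of the same family as Polk, had 0.34 (SE 0.12, adjusted p = 0.282), with 1499, 1456 and 1661 in mutant pools and 1329, 1129 and 1202 in control pools, which did not overlap. Polh and Poli, the other two measured relatives of Polk, had 0.14 (adjusted p = 0.707) and 0.01 (adjusted p = 0.992). The folate carrier gene Slc19a1 had 0.16 (adjusted p = 0.736) and the second thiamine carrier gene Slc19a3 0.18 (adjusted p = 0.806). Cbr4, a reductase related to Dcxr, had −0.02 (adjusted p = 0.967). A second probe set had −0.11 for Slc19a1, the opposite sign, 0.55 for Ak3, −0.21 for Ak4 and −0.007 for Polh. Limma called none of these further probe sets. The difference between a family member and its relative among the 6 genes was not tested.

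The pathways around the 6 genes were described by 8 lists with 121 genes, of which 88 were measured. Limma called 0 of them, and at an unadjusted p under 0.05 there were 9 higher and 2 lower, against 7.84% and 6.72% of all genes. With the spike-in ratio as a block 3 were called higher, Thtpa (adjusted p = 0.0133 by limma), Gadd45a (0.0166) and Slc25a20 (0.0494), and 2 lower, Pdha1 (0.00313) and Ugdh (0.0413). Over all 19551 probe sets that block gave 341 called higher and 339 lower, against 47 and 62 without it. The values given for single genes are without that block. The median log2 difference of the 88 was 0.06, beside 0.02 over all genes.

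Of 7 measured genes for the uptake, activation and use of thiamine, 1 had an unadjusted p under 0.05 in each direction. Thtpa, thiamine triphosphatase, read 619, 679 and 642 in mutant pools, against 352, 385 and 475 in control pools (0.69, SE 0.16, adjusted p = 0.0912 by limma). All 3 mutant values lay above the control values. Pdha1, a subunit of the thiamine-dependent pyruvate dehydrogenase, read 2693, 3321 and 3129 in mutant pools, against 6093, 4307 and 4453 in control pools (−0.69, SE 0.15, adjusted p = 0.0786). A second Pdha1 probe set had 0.05 (adjusted p = 0.956), so the probe sets of this gene disagree.

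Among 13 genes of adenine nucleotide balance and AMP sensing, 2 had an unadjusted p under 0.05, Ak3 and Prkab2, a subunit of the AMP-activated kinase (0.40, SE 0.14, adjusted p = 0.265). Of 14 genes of mTORC1 and its stress inhibitors there were also 2, Ddit4 and Eif4ebp1, a repressor of translation that mTORC1 phosphorylates (0.32, SE 0.10, adjusted p = 0.218). Sesn1, a stress inhibitor of mTORC1 and a known p53 target, was lower in value, with −0.39 (SE 0.20, adjusted p = 0.444), and all 3 of its probe sets had negative values, from −0.39 to −0.32. At high spike-in ratio its difference was 0.06, and at low ratio −0.89.

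Of 13 genes of translesion synthesis and damage tolerance, Rev1 alone had an unadjusted p under 0.05. Ube2b, a ubiquitin-conjugating enzyme that acts with Rad18 at stalled forks, came next (0.19, SE 0.11, adjusted p = 0.494). In the list of excision repair, damage sensing and nucleotide supply, 1 of 14 genes had an unadjusted p under 0.05. It was Gadd45a, a stress-response gene that p53 induces, with 564, 539 and 424 in mutant pools, against 238, 286 and 329 in control pools (0.84, SE 0.18, adjusted p = 0.0798). The next was Ercc5, a nuclease of nucleotide excision repair (0.26, SE 0.14, adjusted p = 0.492).

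Of 11 genes of the polyol, glucuronate-xylulose and pentose phosphate pathways, Cryl1, an enzyme of the same route as Dcxr, had 0.64 (SE 0.21, adjusted p = 0.236), and Ugdh, which makes UDP-glucuronate, −0.37 (SE 0.17, adjusted p = 0.387). A second Cryl1 probe set had 0.09 (adjusted p = 0.916). Of 13 genes of the carnitine shuttle and fatty acid oxidation, Slc25a20, the mitochondrial carnitine-acylcarnitine carrier, read 1273, 1016 and 916 in mutant pools, against 778, 656 and 696 in control pools (0.58, SE 0.15, adjusted p = 0.14). Hadhb, of the trifunctional enzyme of fatty acid oxidation, followed with 0.25 (SE 0.14, adjusted p = 0.481). Of 7 measured metabolic and redox genes described as p53 targets, 0 were called, and Ddit4 alone had an unadjusted p under 0.05. The list's median was 0.01.

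Of 9 listed genes, p53 itself, its regulators and some of its targets, 8 were measured, all but Trp53, which encodes p53. Of these, 5 were called higher, against 0.34% of all genes. At an unadjusted p under 0.05, 7 were higher, against 7.84% of all genes. Their rise was known from these data when the list was made, so these counts are no independent evidence. The 5 called genes were Cdkn1a (2.52), Ccng1 (2.33), Trp53inp1 (2.30), Phlda3 (1.90) and Zmat3, an RNA-binding p53 target (0.96, adjusted p = 0.0122 by limma). Aen (0.49, adjusted p = 0.0893) and Mdm2 (0.39, adjusted p = 0.286) were higher without a call. Mdm4 was lower in value (−0.23, adjusted p = 0.499). The call of Zmat3 was lost without mutant 1 (adjusted p = 0.121), without control 2 (0.0585) or without control 3 (0.0823).

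**Figure D4:**
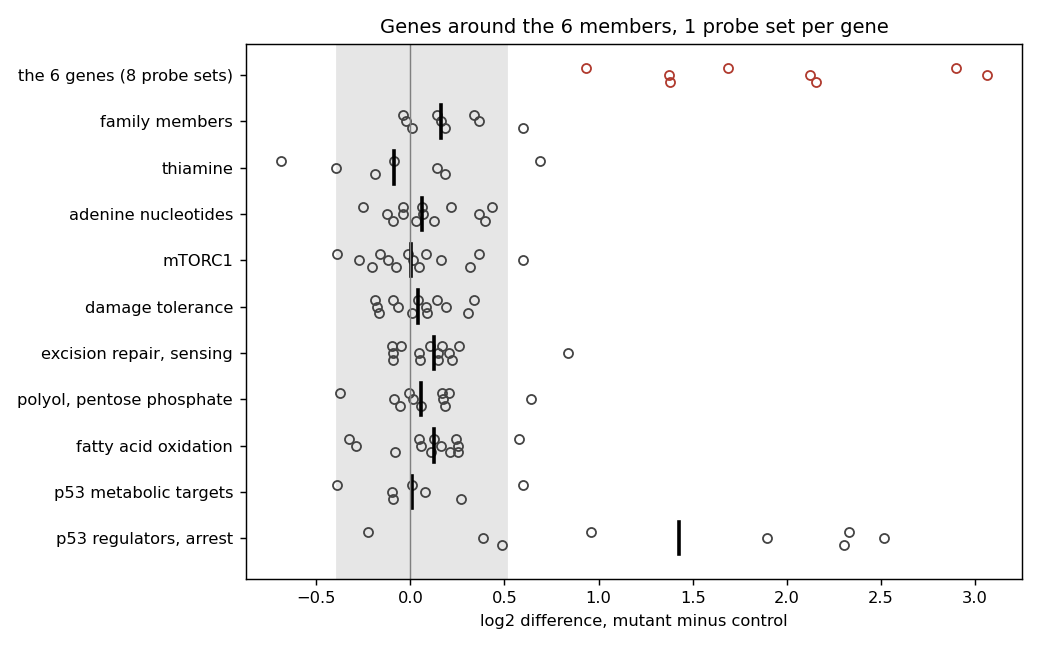
Log2 difference, mutant minus control (x axis), of the 8 probe sets of the 6 genes (red) and of the measured genes of each list (grey, 1 probe set per gene, black bar at the list's median), with the 5th to 95th percentile of all genes, −0.39 to 0.51, shaded. The medians of the 8 pathway lists lie between −0.09 and 0.13 and that of the p53 regulators and targets (the row labelled arrest) at 1.43.

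The genes next to the 6 genes on the chromosome were taken as the 2 nearest protein-coding genes on each side in RefSeq, a rule added after the data had been seen. Of 24 neighbours 15 were measured, and limma called 0, with 3 higher and 1 lower at an unadjusted p under 0.05, against 7.84% and 6.72% of all genes. They were Emcn beside Ddit4l, an endothelial sialomucin gene (0.77, SE 0.19, adjusted p = 0.123), Ccdc181 beside Slc19a2 (0.70, SE 0.28, adjusted p = 0.326), Cert1 beside Polk, a ceramide carrier (0.35, SE 0.13, adjusted p = 0.311), and Dnajb14 beside Ddit4l (−0.43, SE 0.19, adjusted p = 0.37). Eng, the endothelial gene next to Ak1, had −0.34 (SE 0.25, adjusted p = 0.612).

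Markers of other cell types were read beside the 6 genes, since Ak1 is also abundant in red blood cells and muscle and Cpt1c in neurons. Their calls stand against 0.34% of all genes called higher and 0.466% called lower, and their counts at an unadjusted p under 0.05 against 7.84% higher and 6.72% lower. The marker lists were chosen with earlier results of these data known, so these calls and counts are not an independent test. Sums are of linear signal, so the brightest markers of a list weigh most. Summed signal of 8 of 10 blood markers was 44690 to 62681 in mutant pools and 32151 to 44678 in control pools, with 0 called, and 4 higher and 1 lower at an unadjusted p under 0.05. The brightest of them were the globin genes, of which Hbb-y and Hba-x overlapped between genotypes and Hbb-bh1 did not. The 6 measured of 11 neural markers summed to 5287 to 6850 in mutant and 4927 to 5679 in control pools, which overlap, with 0 called and 2 higher at an unadjusted p under 0.05. Of 9 striated muscle markers 1 was measured, Actc1, cardiac actin, with 318 to 561 in mutant and 87.6 to 201 in control pools, and it was called higher (1.70, adjusted p = 0.0448 by limma).

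Surface ectoderm markers, 10 of 10 measured, summed to 23477 to 25030 in mutant and 15998 to 17660 in control pools. Of these, 9 were higher at an unadjusted p under 0.05 and 2 were called, the keratin gene Krt19 (1.12, adjusted p = 0.0458 by limma) and Epcam, an epithelial adhesion gene (0.60, adjusted p = 0.04). The 10 gut endoderm markers summed to 11740 to 28904 in mutant and 8016 to 12857 in control pools, which overlap. They had 3 higher and 2 lower at an unadjusted p under 0.05, and the 1 called marker, Sox17, an endoderm transcription factor, was lower (−1.06, adjusted p = 0.0492).

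PSM markers, 10 of 11 measured, summed to 6239 to 8624 in mutant and 9190 to 11507 in control pools. At an unadjusted p under 0.05 there were 1 higher and 5 lower. Ripply2, a repressor expressed where somites form, was called lower (−1.56, adjusted p = 0.000987 by limma), and Pax3, a transcription factor that is also expressed in the dorsal neural tube, was called higher (0.94, adjusted p = 0.0299). The 7 measured of 10 endothelial markers summed to 6059 to 8659 in mutant and 10399 to 11202 in control pools, with 1 higher and 4 lower at an unadjusted p under 0.05, and Kdr, a receptor for VEGF, called lower (−0.82, adjusted p = 0.0345). The 6 measured of 9 lateral mesoderm markers summed to 3082 to 3700 in mutant and 5555 to 5875 in control pools, with 2 higher and 3 lower at an unadjusted p under 0.05. The 3 lower ones were called, the transcription factor genes Prrx1 (−1.32, adjusted p = 0.00316), Hand2 (−0.95, adjusted p = 0.0264) and Foxf1 (−0.87, adjusted p = 0.0458).

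Of these 10 called markers, Ripply2 and Prrx1 kept the call whichever pool was left out. The other 8 lost it in at least 3 of the 6 leave-outs, each of them without mutant 1, without mutant 2 and without control 3, with the highest adjusted p between 0.108 for Hand2 and 0.239 for Actc1. Each call is for the gene's probe set of highest mean signal. A second probe set of Hand2 had 0.18, of Sox17 −0.31, of Pax3 0.73 and of Epcam 0.58. Further Prrx1 probe sets had −0.79 and 0.01. Limma called none of these further probe sets. No marker was listed at 0. The part of cell composition in the differences of the 6 genes was not tested, and in pooled tissue fewer cells of a type and less RNA per cell cannot be told apart.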

How the data were processed

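Expression was measured on 6 Affymetrix arrays. The authors deposited 1 linear intensity per probe set and array, made with MAS5 in Affymetrix Expression Console per the submitters' processing notes; versions and the scaling target are not given in the sources used here, and the number of arrays limits the precision. Of 19606 probe sets, 55 array controls were left out. Of the rest, 17348 carried exactly 1 symbol in the platform annotation, with 0 symbols replaced through RefSeq. Values were taken as log2 of the signal plus 1, with no filter. Mutant and control pools were compared with limma 3.58.1 (R 4.3.3, lmFit and eBayes with an intensity trend, two-sided, adjusted p under 0.05 over all probe sets), tested on simulated data. The 6 genes, the lists and the spike-in ratio split were chosen with earlier results of these data known. Genes named are all probe sets of the 6 genes, their family members, from each other list the called genes (up to 6) or the 2 with the smallest p, and the 3 nearest profiles of each of the 6 genes, without Rik, Gm, LOC and clone symbols. Called members of the p53 and marker lists are named. Residuals of mutant and control pools of equal number correlated by 0.18, −0.27 and 0.27, so the numbers were not treated as pairs. Alternatives were offsets of 16 and 64, a filter at the 40th percentile, quantile normalization, median centring, no intensity trend, replicate number as a block, the spike-in ratio as a block, averaging the probe sets of each gene, and leaving out each pool.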

Additional observations from a re-analysis of the deposited data

How the results depend on the processing

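Under 129 alternative values for the 8 probe sets, all were positive and 116 moved by less than 1 SD between replicates. Since mutant and control values did not overlap, offsets, leave-outs and the spike-in ratio sets could not change a sign. The filter, the fit without intensity trend and the replicate block leave a difference unchanged by construction. So does averaging for a gene with 1 probe set. These counts are therefore no measure of robustness. With an offset of 64 the log2 differences were 1.94 and 1.82 for Slc19a2 (1417902_at and 1441315_s_at), 1.20 for Ak1, 2.25 and 2.06 for Ddit4l (1444139_at and 1439332_at) and 1.34 for Dcxr, and an offset of 16 gave 2.80 for Ddit4l (1444139_at); a larger offset shrinks the fold of a low signal by construction. Within the high spike-in ratio arrays 1417902_at had 2.06 and Dcxr 1.42. Within the low-ratio arrays the values were 2.22 for 1417902_at, 2.75 and 2.55 for Ddit4l (1444139_at and 1439332_at) and 1.98 for Dcxr. Leaving out 1 pool gave 2.68 to 3.25 for Ddit4l over both probe sets, 2.07 to 2.20 for Slc19a2, 1.31 to 1.47 for Ak1, 0.80 to 1.07 for Polk, 1.53 to 1.80 for Dcxr and 1.21 to 1.56 for Cpt1c.

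The count of all called probe sets, 47 higher and 62 lower, depended on the setting. It was 29 higher with the filter, 25 higher and 22 lower without the intensity trend, 113 and 105 with the replicate block, and 341 and 339 with the spike-in ratio block. Leaving out 1 pool gave 19 to 100 higher and 14 to 106 lower, with the lowest total without mutant 1 (33, all among the 109) and the highest without mutant 3 (206, of which 99 were); the total was 39 without mutant 2, 175 without control 1, 39 without control 2 and 37 without control 3. The replicate block changed no call among the 36 genes named from the lists. Pathway genes, with 0 calls otherwise, had 3 higher (Thtpa, Gadd45a and Slc25a20) and 2 lower (Pdha1 and Ugdh) with the spike-in ratio block. When the probe sets of each gene were averaged, 2 were called higher (Thtpa, adjusted p = 0.05 by limma, and Gadd45a, adjusted p = 0.0465). Both have 1 probe set, so averaging left their differences at 0.69 and 0.84. Their adjusted p moved because the fit then ran over genes in place of probe sets. Small differences changed sign. Leaving out 1 pool gave −0.14 to 0.11 for Ak4, −0.12 to 0.062 for Cbr4, −0.010 to 0.43 for Slc19a3 and −0.11 to 0.19 for Poli, and Poli had −0.076 with quantile normalization and −0.023 with median centring. The cause of these shifts was not tested. The call of Zmat3 was also lost without the intensity trend (adjusted p = 0.0589). The calls of 8 of the 10 markers, all but Ripply2 and Prrx1, were lost there too. Low control signals limit the folds of all 6 genes, since detection calls were not used here.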
